A study of Mus musculus with 37 samples.

Results

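The genes described here are Igf1, which encodes insulin-like growth factor 1, Igf1r, which encodes its receptor, and Igfbp2, Igfbp3, Igfbp4, Igfbp5, Igfbp6 and Igfbp7, which encode IGF binding proteins. They were chosen by name as the IGF axis, as 8 of the 19938 genes that had a probe set with exactly 1 gene symbol on a whole-transcript mouse array, and each of them had a single such probe set. RNA came from whole right lungs of fetal and newborn A/J and C57BL/6J (B6) mice, both inbred strains without a transgene or treatment. A/J lungs were taken at 7 times, daily from E15.5 to E20.5 (days after conception) and at PN0, soon after birth, and B6 lungs at 5 of these times, daily up to E18.5 and at PN0. Each of the 12 groups held 3 litters, and a replicate was 1 litter with the lungs of 3 males pooled, so that variation among pups of a litter was not measured. B6 pups are born a day earlier than A/J pups, so that at PN0 strain and age after conception cannot be told apart.

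IGF1 and IGF2 are secreted growth factors that act through the tyrosine kinase receptor IGF1R, and this signal drives growth of the fetus and of many organs, the lung among them. IGFBP2 to IGFBP6 bind IGF outside the cell with high affinity, carry it and restrict or direct its access to the receptor, and proteases that cut them set it free. IGFBP7 binds IGF only weakly and is known as a protein of the vessel wall and the extracellular matrix.

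The 8 genes lie on 6 chromosomes of the GRCm38.p6 assembly. Igfbp2 (chr1:72824480-72852474) and Igfbp5 (chr1:72858065-72874865) are neighbours in opposite orientation, with 5590 bases between them. The promoter sequences of the 5 genes that changed at least 2-fold over time in both strains are shown because RNA of 2 of them fell and that of 3 rose over these times. Each is the 250 bases before the transcript start that RefSeq lists, 5′ to 3′ on the strand of the gene, and the first of 2 listed starts for Igfbp2. For Igf1 and Igfbp3 this start lies inside the annotated gene, 2846 and 1575 bases from its 5′ end, so that the windows shown are not upstream of the whole gene. Capitals mark matches on either strand. The letters searched were TATAAA for the TATA box, then CCAAT for the box of that name, GGGCGG for the GC box, TGANTCA for the site of AP-1 factors, and CACGTG for the E-box. Igf1 is read from the plus strand at chr10:87860861-87861110, Igfbp2 from the plus strand at chr1:72824230-72824479, Igfbp3 from the minus strand at chr11:7213924-7214173, Igfbp6 from the plus strand at chr15:102143936-102144185 and Igfbp7 from the minus strand at chr5:77408046-77408295.
Igf1: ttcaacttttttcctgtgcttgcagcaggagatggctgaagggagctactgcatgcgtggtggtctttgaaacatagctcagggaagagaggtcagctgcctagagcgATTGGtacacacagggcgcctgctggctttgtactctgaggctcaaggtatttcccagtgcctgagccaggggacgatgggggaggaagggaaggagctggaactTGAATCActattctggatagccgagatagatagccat
Igfbp2: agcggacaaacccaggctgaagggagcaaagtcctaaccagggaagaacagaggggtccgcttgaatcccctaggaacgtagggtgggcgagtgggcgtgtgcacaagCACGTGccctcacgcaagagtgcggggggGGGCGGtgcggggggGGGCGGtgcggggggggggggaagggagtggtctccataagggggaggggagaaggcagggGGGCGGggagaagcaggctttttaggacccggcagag
Igfbp3: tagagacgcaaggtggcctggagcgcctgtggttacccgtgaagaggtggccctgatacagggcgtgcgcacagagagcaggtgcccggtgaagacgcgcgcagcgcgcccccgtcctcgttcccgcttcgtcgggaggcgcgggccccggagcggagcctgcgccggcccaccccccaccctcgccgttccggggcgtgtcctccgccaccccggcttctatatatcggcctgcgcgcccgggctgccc
Igfbp6: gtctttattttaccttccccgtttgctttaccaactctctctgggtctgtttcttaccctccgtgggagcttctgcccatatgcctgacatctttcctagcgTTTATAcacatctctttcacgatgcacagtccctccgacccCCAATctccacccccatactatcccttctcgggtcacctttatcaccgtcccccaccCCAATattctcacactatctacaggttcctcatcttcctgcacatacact
Igfbp7: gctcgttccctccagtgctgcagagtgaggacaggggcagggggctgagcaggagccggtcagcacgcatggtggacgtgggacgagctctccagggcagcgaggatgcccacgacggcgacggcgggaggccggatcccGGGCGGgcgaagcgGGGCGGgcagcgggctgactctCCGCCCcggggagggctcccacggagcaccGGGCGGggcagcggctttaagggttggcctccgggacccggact

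The searched windows held these 250 bases and the next 50. The windows of Igfbp2, Igfbp3 and Igfbp7 were rich in G and C, with 67.0%, 71.7% and 73.3% against a median of 52.7% over 32851 windows of 27025 genes. They held 18, 37 and 33 CpG dinucleotides, against a median of 7. The windows of Igf1 and Igfbp6 had 52.3% and 49.7% G and C, with 6 and 8 CpG. A GC box occurred 3 times in Igfbp2 and 4 times in Igfbp7, and in 35.7% of all windows. Igf1 held an inverted CCAAT box 142 bases before the start and an AP-1 match 37 bases before it, which 37.4% and 7.81% of all windows also held. Igfbp6 held CCAAT boxes 107 and 50 bases before the start and an inverted TATA box at 148, the latter found in 13.6% of windows. An E-box lay 142 bases before the start of Igfbp2 and in 7.15% of windows. The window of Igfbp3 held none of these letters. These are matches of letters only, and no binding was measured.

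The deposited values are log2 expression values after RMA, a method that corrects background, makes the distribution of all arrays equal and summarizes probes per probe set, and all levels and differences below are on this log2 scale. The 37 arrays had medians of 6.34 to 6.54. For B6 at E18.5 the array titled 2b was averaged with array 2, though its r was 0.993 with each of arrays 1, 2 and 3. The r of array 2 with arrays 1 and 3 was 0.988. Array 2 and array 2b read 9.50 and 9.19 for Igf1r and 8.01 and 8.48 for Igfbp3. Replicates differed in RNA of neighbouring tissues. Markers of esophagus and upper airway epithelium were at 6.6 or more on average in 10 replicates, 9 of them A/J and among these all 3 at E18.5. Liver markers were highest in A/J at E15.5 replicate 1, A/J at E19.5 replicate 2, and replicate 1 of B6 at E15.5 and at E16.5, at 6.82 to 8.43. Heart muscle markers were at 9.92 in A/J at E15.5 replicate 1, against 7.64 and 7.66 in its group, and at 8.72 in B6 at E15.5 replicate 1, against 7.66 and 7.39. Lung epithelial markers were high in every replicate (means of 9.08 to 11.2), with Nkx2-1, the lung and thyroid transcription factor, at group means of 9.31 to 9.90. At E18.5 the median difference of all 21789 probe sets was -0.13 between B6 and A/J. In A/J the median rose by 0.12 from E17.5 to E18.5 and changed by -0.10 from E18.5 to E19.5. Member values that involve A/J at E18.5 are thus to be read against these shifts.

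From E15.5 to birth Igf1 mRNA fell 3.35-fold in A/J lungs and 2.38-fold in those of B6. In A/J the replicates were at 9.10, 9.08 and 9.08 at E15.5, at 8.64, 8.78 and 8.31 at E18.5, at 7.65, 7.68 and 7.78 at E19.5 and at 7.19, 7.54 and 7.30 at PN0. In B6 they were at 9.35, 9.38 and 9.27 at E15.5, at 8.41, 8.56 and 8.37 at E18.5 and at 8.06, 8.14 and 8.05 at PN0. Every later replicate named here lay below every E15.5 replicate of its strain. By PN0 the A/J level had changed by -1.74 and the B6 level by -1.25 (SE 0.09, n = 3 per group, limma adjusted p = 8.4e-17 and 2.4e-13). Much of the decrease in A/J fell into the day from E18.5 to E19.5 (-0.87, limma adjusted p = 2.6e-08), where the median of all probe sets changed by -0.10. The step before it was -0.17 (adjusted p = 0.14). That earlier step was -0.28 and passed without A/J E18.5 replicate 2 (adjusted p = 0.024), and likewise after array median centring or quantile normalization (-0.28 and -0.30, adjusted p = 0.025 and 0.014). In B6 the steps from E17.5 to E18.5 and from E18.5 to PN0 were -0.48 and -0.36 (limma adjusted p = 0.00016 and 0.0025). Over the 12 groups the order ran from B6 at E15.5 (9.33 ± 0.06, SD, n = 3) down to A/J at PN0 (7.34 ± 0.18). Replicates of 6 of the 11 neighbours in this order overlapped, among them A/J and B6 at E18.5.

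**Figure D1:**
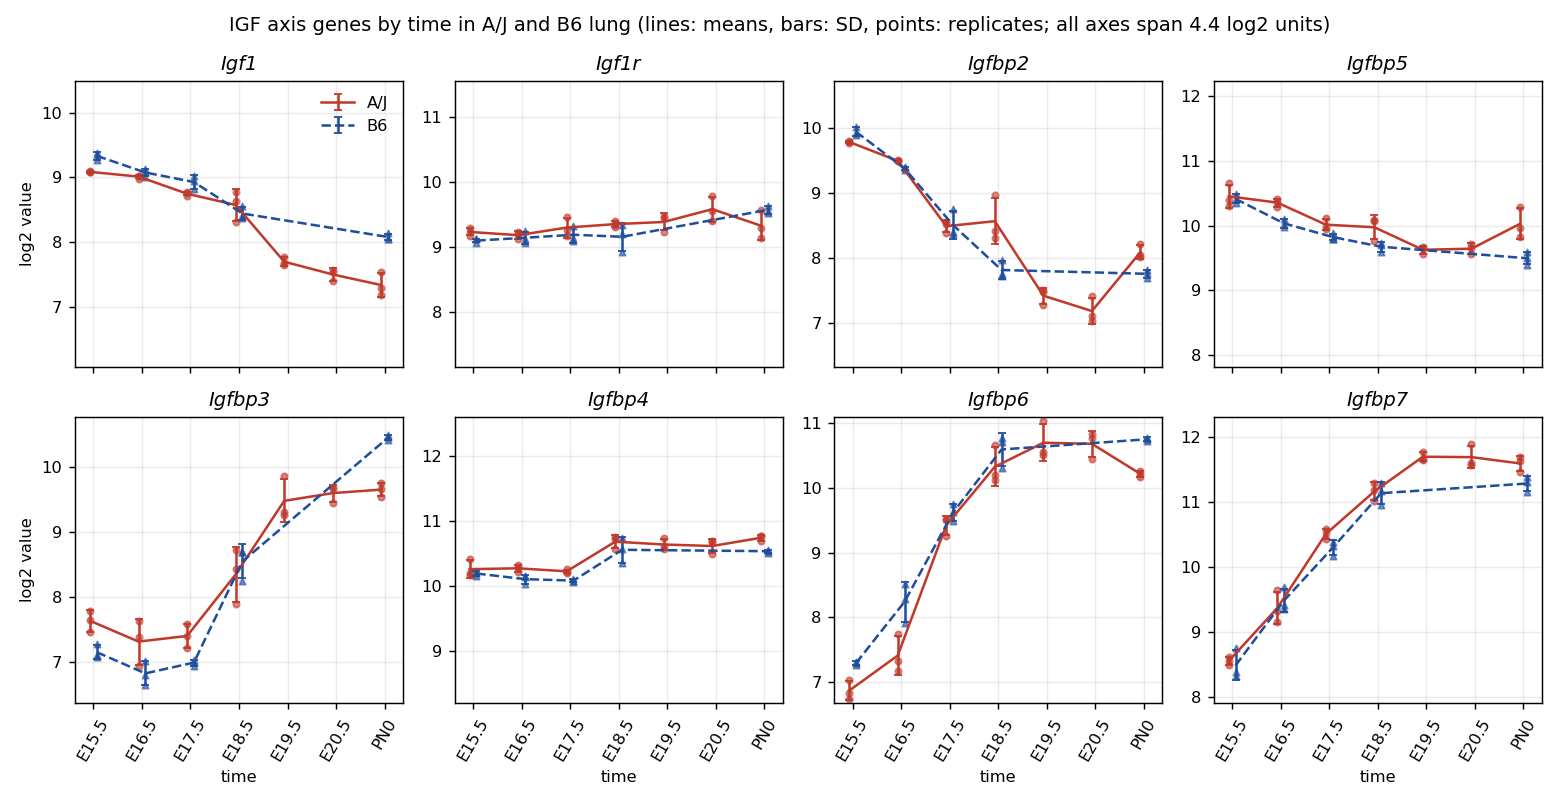
Log2 value of each IGF axis gene (y) by time (x) in A/J (circles, solid line) and B6 (triangles, dashed line); points are replicates, lines join the group means and bars are SD (n = 3). Times are evenly spaced and PN0 is drawn last for both strains, though B6 PN0 lungs were a day younger after conception. Igf1, Igfbp2 and Igfbp5 end below their E15.5 level and Igfbp3, Igfbp6 and Igfbp7 end above it.

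Igf1r mRNA, which encodes the receptor, moved little. Its 12 group means lay between 9.10 and 9.59, and replicates of 10 of the 11 neighbours in their order overlapped. In B6 the replicates were at 9.07, 9.12 and 9.12 at E15.5, at 8.93, 9.35 and 9.21 at E18.5 and at 9.56, 9.64 and 9.53 at PN0. All 3 newborn values lay above all fetal values of that strain, and the change from E15.5 to PN0 was 0.47 (SE 0.11, fold 1.39, limma adjusted p = 0.00030). In A/J they were at 9.29, 9.24 and 9.18 at E15.5, at 9.41, 9.56 and 9.79 at E20.5 and at 9.57, 9.29 and 9.14 at PN0. The change to E20.5 was 0.35 (limma adjusted p = 0.0057) and that to PN0 0.10 (adjusted p = 0.49, 95% interval -0.12 to 0.31). The former was 0.25 without A/J E20.5 replicate 3 (adjusted p = 0.071). It was 0.17 without the replicates high in upper airway markers, which left replicate 1 alone of A/J at E20.5.

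Of the binding proteins, Igfbp2 mRNA fell furthest, by 6.08-fold in A/J up to E20.5 and by 4.55-fold in B6 up to PN0. IGFBP2 is the binding protein typical of fetal tissues and fetal serum. In A/J the replicates were at 9.80, 9.79 and 9.77 at E15.5, at 8.42, 8.97 and 8.31 at E18.5, at 7.41, 7.11 and 7.03 at E20.5 and at 8.21, 8.02 and 8.04 at PN0. In B6 they were at 9.89, 9.92 and 10.02 at E15.5, at 7.97, 7.76 and 7.72 at E18.5 and at 7.81, 7.77 and 7.69 at PN0. A/J thus had its lowest level at E20.5 and was higher again at PN0, with no overlap of replicates. The B6 replicates at E18.5 and PN0 overlapped. B6 had no group between E18.5 and PN0, so that a low level shortly before birth could not have been seen there. The change to E20.5 in A/J was -2.60 (SE 0.12, limma adjusted p = 4.0e-18), and that to PN0 was -1.70 in A/J and -2.19 in B6 (adjusted p = 1.2e-13 and 3.5e-16). The decrease was not even in A/J, with steps of -1.01 from E16.5 to E17.5, 0.08 to E18.5 and -1.15 to E19.5 (limma adjusted p = 9.3e-08, 0.66 and 2.9e-08). In B6 the steps to E16.5, E17.5 and E18.5 were -0.56, -0.87 and -0.69 (limma adjusted p = 0.0011, 6.9e-06 and 6.4e-05). Array 2 and array 2b of B6 at E18.5, which were averaged, read 7.43 and 8.08.

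Igfbp5, the neighbour of Igfbp2 and the most conserved of the family, fell less. Its A/J replicates were at 10.65, 10.40 and 10.30 at E15.5, at 9.56, 9.72 and 9.65 at E20.5 and at 10.29, 9.83 and 9.96 at PN0. Its B6 replicates were at 10.48, 10.34 and 10.41 at E15.5 and at 9.50, 9.40 and 9.59 at PN0. By PN0 the A/J level had changed by -0.42 and the B6 level by -0.91 (SE 0.10, limma adjusted p = 0.00045 and 1.6e-09), and up to E20.5 it was -0.81 in A/J (adjusted p = 1.8e-08). As for Igfbp2, the A/J level was higher at PN0 than at E20.5, and the replicates of these groups did not overlap.

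Igfbp3 mRNA, which encodes the main carrier of IGF in the serum after birth, rose late and steeply. In A/J the replicates were at 7.79, 7.65 and 7.46 at E15.5, at 7.59, 7.40 and 7.21 at E17.5, at 8.43, 7.89 and 8.72 at E18.5, at 9.86, 9.31 and 9.27 at E19.5 and at 9.75, 9.67 and 9.54 at PN0. In B6 they were at 7.27, 7.10 and 7.08 at E15.5, at 6.94, 7.03 and 7.0 at E17.5, at 8.70, 8.25 and 8.70 at E18.5 and at 10.49, 10.41 and 10.46 at PN0. Up to E17.5 the level did not pass the test against E15.5 in either strain, with changes from -0.33 to -0.16. From E17.5 on it rose in A/J by 0.95 and 1.13 in the next 2 days (SE 0.17, limma adjusted p = 0.00014 and 1.2e-05) and then stayed within the spread of replicates up to PN0. In B6 it rose by 1.56 up to E18.5 and by a further 1.91 up to PN0 (limma adjusted p = 1.6e-07 and 1.3e-09). In all, A/J rose by 2.02 (fold 4.06, adjusted p = 1.1e-11) and B6 by 3.30 (fold 9.87, adjusted p = 1.4e-16) between E15.5 and PN0. The 3 B6 newborn values lay above all other replicates of both strains.

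Igfbp6 and Igfbp7 were called from E16.5 on, earlier than Igfbp3. IGFBP6 differs from the other members in its preference for IGF2 over IGF1. Its mRNA was at 6.75, 6.83 and 7.04 in A/J at E15.5, at 9.25, 9.50 and 9.51 at E17.5, at 10.76, 10.44 and 10.82 at E20.5 and at 10.17, 10.21 and 10.25 at PN0. In B6 it was at 7.30, 7.27 and 7.32 at E15.5, at 9.75, 9.48 and 9.62 at E17.5 and at 10.77, 10.75 and 10.71 at PN0. Every replicate from E17.5 on lay above every E15.5 replicate by more than 2 log2 units, in both strains. In all it rose by 3.34 (fold 10.1) in A/J and by 3.45 (fold 10.9) in B6, with an SE of 0.16 and limma adjusted p of 1.4e-17 and 8.0e-18. The largest daily step was that from E16.5 to E17.5, at 2.01 in A/J and 1.38 in B6 (limma adjusted p = 1.1e-10 and 5.8e-07). In A/J the step from E15.5 to E16.5 was 0.54 (limma adjusted p = 0.034), and it did not pass without E15.5 replicate 1 (0.48, adjusted p = 0.17), E15.5 replicate 2 (0.52, adjusted p = 0.083), E16.5 replicate 1 (0.38, adjusted p = 0.26) or E16.5 replicate 2 (0.58, adjusted p = 0.055).

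Igfbp7 mRNA was at 8.50, 8.61 and 8.55 in A/J at E15.5, at 10.52, 10.43 and 10.58 at E17.5, at 11.67, 11.78 and 11.65 at E19.5 and at 11.46, 11.69 and 11.64 at PN0. In B6 it was at 8.38, 8.75 and 8.33 at E15.5, at 10.39, 10.33 and 10.17 at E17.5 and at 11.39, 11.31 and 11.16 at PN0. It rose at each daily step up to E19.5 in A/J and up to E18.5 in B6, with steps of 0.53 to 1.14 (SE 0.12, limma adjusted p of 0.0013 or less). The rise up to PN0 came to 3.04 (fold 8.24, adjusted p = 1.9e-19) in A/J and 2.80 (fold 6.96, adjusted p = 1.7e-18) in B6. In the order of the 12 groups, the 3 oldest A/J groups stood highest (11.60 to 11.70) and overlapped one another.

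Igfbp4, an inhibitory binding protein, showed a single small step. Its A/J replicates were at 10.26, 10.22 and 10.21 at E17.5 and at 10.76, 10.73 and 10.57 at E18.5, and its B6 replicates at 10.11, 10.07 and 10.08 and at 10.75, 10.36 and 10.58. The replicates of these times did not overlap in either strain, and the A/J step was 0.46, the B6 step 0.47 (SE 0.08, limma adjusted p = 0.00011 and 6.0e-05). The A/J step took place where the median of all probe sets also rose by 0.12. For B6 at E18.5 the value of 10.36 averages array 2 at 10.12 and array 2b at 10.59. No other daily step of Igfbp4 passed, and from E15.5 to PN0 it rose by 0.48 and 0.34 (limma adjusted p = 5.9e-06 and 0.00056).

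Over all times, the same 5 members, Igf1, Igfbp2, Igfbp3, Igfbp6 and Igfbp7, changed in A/J and in B6 by limma's F test (adjusted p under 0.01) and at least 2-fold between the highest and lowest group mean. By this rule 17.8% of all 21789 probe sets were called in A/J and 14.4% in B6. Between E15.5 and PN0, 4 members rose and 3 fell in A/J, where 25.2% of probe sets rose, 25.8% fell and 51% changed in either direction. In B6 5 rose and 3 fell, against 24.4% and 26.6% of all probe sets, and 51% in either direction. The member not called in A/J was Igf1r. The changes of Igfbp3, Igfbp6 and Igfbp7 were 2.02 or more and those of Igfbp2 -1.70 or below, and the median change of all probe sets was -0.04 (A/J) and -0.00 (B6). Counted against E15.5, 2 members were called in A/J at E16.5 (6.66% of all probe sets), 5 at E17.5 (37.6%), 7 at E18.5 (49.8%), 7 at E19.5 (49.8%) and all 8 at E20.5 (51.4%). The B6 counts were 4 members at E16.5 (14.4% of probe sets), 5 members at E17.5 (40.1%) and 7 members at E18.5 (46.1%).

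**Figure D2:**
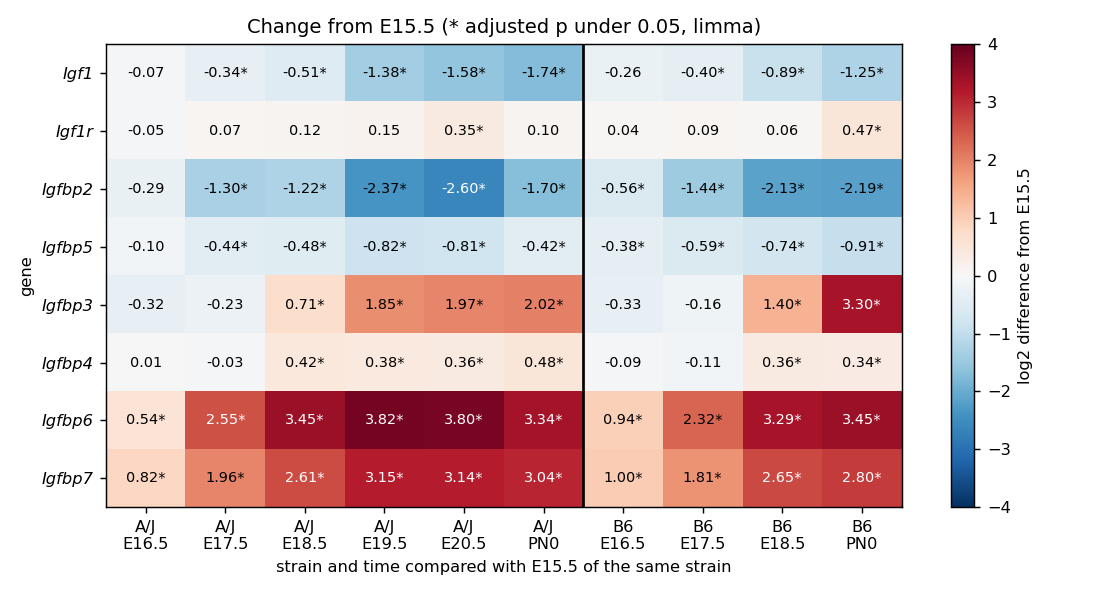
Difference in log2 value from E15.5 of the same strain, for the IGF axis genes (rows) at each later time in A/J and B6 (columns); colour and printed number give the difference of group means (n = 3) and a star marks an adjusted p under 0.05 by limma. Igfbp6 and Igfbp7 rise from E16.5 on, Igfbp3 only from E18.5 on, and Igf1, Igfbp2 and Igfbp5 fall.

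Day by day, the members moved at different times. From E16.5 to E17.5, 5 of 8 members were called in A/J (28.7% of all probe sets) and 3 of 8 in B6 (15.7%). From E17.5 to E18.5, 4 of 8 were called in A/J, all of them higher (31.3% of probe sets in either direction and 26.8% higher), and 6 of 8 in B6 (23.7%). From E18.5 to E19.5 in A/J, 5 of 8 were called (28.3%): Igf1, Igfbp2 and Igfbp5 fell and Igfbp3 and Igfbp7 rose, where 23.7% of all probe sets fell and 4.56% rose. The Igfbp5 step there was -0.35 (limma adjusted p = 0.0085), and without A/J E18.5 replicate 1 it was -0.29 (adjusted p = 0.057). The Igf1 step from E16.5 to E17.5 in A/J was -0.26 (limma adjusted p = 0.026). It ranged from -0.27 to -0.25 and missed the threshold (adjusted p of 0.053 to 0.077) without replicate 1 or 3 of A/J at E16.5 or replicate 1 or 3 of A/J at E17.5. Igfbp6 was at 0.37 from E18.5 to E19.5 (adjusted p = 0.080), and at 0.54 without A/J E18.5 replicate 3 (adjusted p = 0.016). From E19.5 to E20.5 no member passed in limma's test, where 0.707% of all probe sets did, and 1 member, Igf1, had an unadjusted p under 0.05.

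The strains were compared at the 5 shared times, to ask whether the members follow the shorter gestation of B6. At E15.5 no member differed after adjustment in limma's test (2.46% of all probe sets did, and Igf1, Igfbp3 and Igfbp6 had an unadjusted p under 0.05). At E17.5 again none did (10.9% of probe sets, and Igfbp3 alone had an unadjusted p under 0.05). At E16.5 2 members did (8.09% of probe sets). Igfbp6 was at 7.74, 7.33 and 7.17 in A/J and at 8.29, 8.52 and 7.91 in B6. It was higher in all 3 B6 replicates, by 0.83 (SE 0.16, fold 1.77, limma adjusted p = 0.0015). Igfbp3 differed by -0.49 (adjusted p = 0.070), and by -0.68 (adjusted p = 0.019) without A/J replicate 1. Igfbp5 differed by -0.32 (limma adjusted p = 0.040), and it missed the threshold when any 1 of the 6 replicates was left out, with differences of -0.35 to -0.29 and adjusted p of 0.051 to 0.18.

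At E18.5, 2 of 8 members differed between the strains, both lower in B6, where 31.8% of all probe sets differed and 27.7% were lower. Igfbp2 was at 8.42, 8.97 and 8.31 in A/J and at 7.97, 7.76 and 7.72 in B6, without overlap. The difference was -0.75 (SE 0.12, fold 1.68 lower, limma adjusted p = 3.3e-05). It differed from that at E15.5 by -0.91 (SE 0.17, limma adjusted p = 0.0016 for this interaction, which 6.32% of all probe sets passed). Igf1 and Igfbp3 passed this interaction without A/J E18.5 replicate 3 (-0.51 and 0.87, adjusted p = 0.0074 and 0.026) and without B6 E18.5 replicate 2 (-0.43 and 0.84, adjusted p = 0.046 and 0.040), against -0.38 and 0.69 with them (adjusted p = 0.069 and 0.085). Igfbp5 differed by -0.30 (limma adjusted p = 0.020), and by -0.24, -0.25 and -0.26 (adjusted p = 0.10, 0.083 and 0.083) without A/J replicate 1, A/J replicate 2 or B6 replicate 1. After array median centring or quantile normalization it was -0.21 and -0.18 (adjusted p = 0.13 and 0.20). Igf1 and Igfbp6 were called at E18.5 when A/J replicate 3 was left out, at -0.27 and 0.44 (limma adjusted p = 0.020 and 0.047), against -0.13 and 0.27 with it (adjusted p = 0.27 and 0.20). Other markers moved at this time too. All 7 measured cell cycle markers were lower in B6 (levels of 7.96 to 8.50, against 8.71 to 9.01 in A/J), as were 6 of 8 markers of esophagus and upper airway (5.39 to 5.92, against 6.80 to 7.23). Their part in the difference of Igfbp2 was not tested.

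At PN0, 5 of 8 members differed between the strains, where 19.9% of all probe sets did. Igf1, Igfbp3 and Igfbp6 were higher in B6 (6.71% of probe sets were) and Igfbp2 and Igfbp5 lower (13.2%). Igf1 was at 7.19, 7.54 and 7.30 in A/J and at 8.06, 8.14 and 8.05 in B6, a difference of 0.74 (SE 0.09, fold 1.67, limma adjusted p = 4.8e-07). Igfbp3 differed by 0.80 (SE 0.17, fold 1.74, adjusted p = 0.0010), Igfbp6 by 0.53 (SE 0.16, adjusted p = 0.016) and Igfbp5 by -0.53 (SE 0.10, adjusted p = 0.00020), each without overlap of replicates. Igfbp2 differed by -0.33 (SE 0.12, limma adjusted p = 0.045), a call at the edge of the threshold that was lost when any 1 of the 6 replicates was left out (-0.37 to -0.27, adjusted p of 0.062 to 0.17). It was also lost with the replicate number as a block (adjusted p = 0.055). Igf1r differed by 0.24 (adjusted p = 0.11), and by 0.36 without A/J replicate 1 (adjusted p = 0.021). Igfbp7 differed by -0.31 (adjusted p = 0.067), and by -0.38 without A/J replicate 1 (adjusted p = 0.047).

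**Figure D3:**
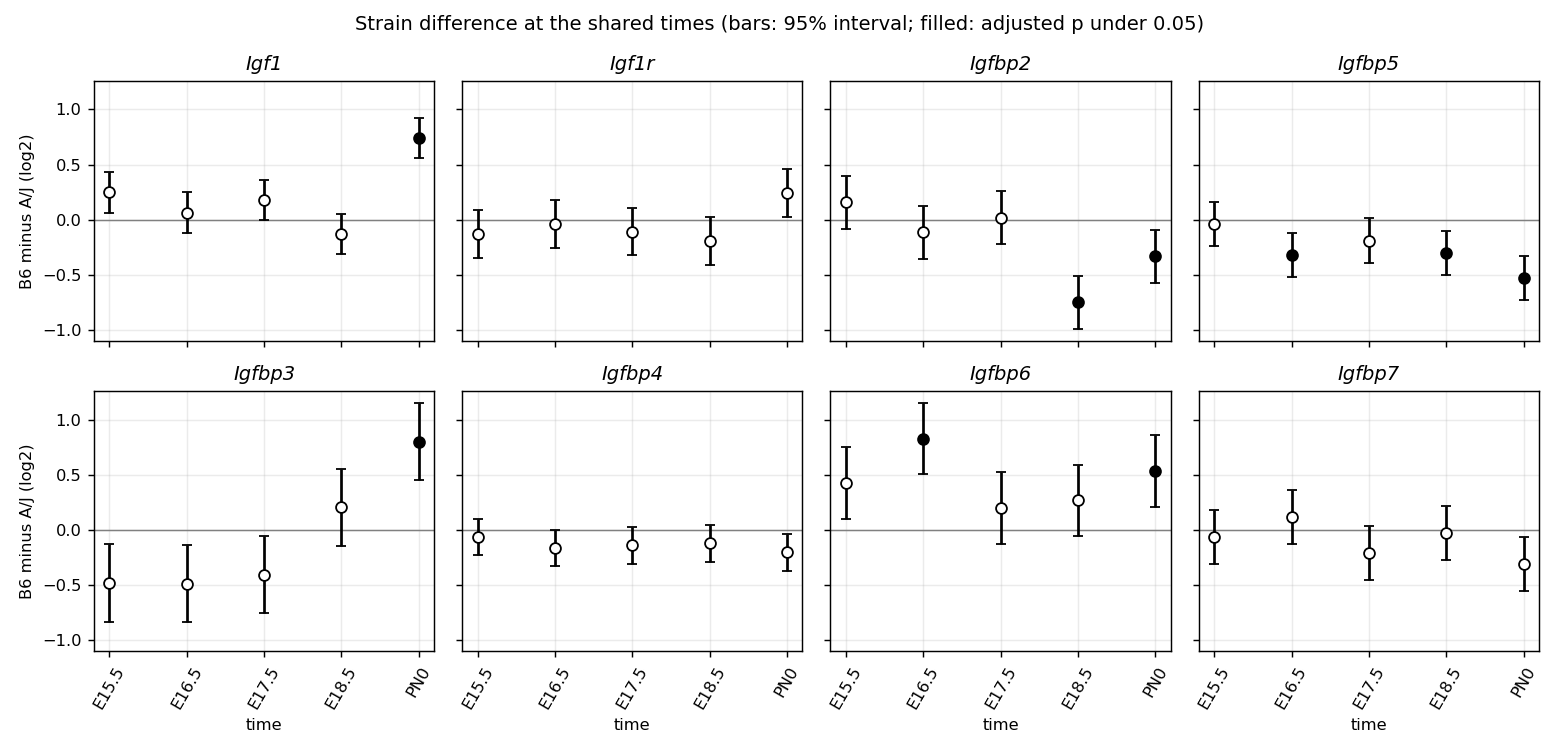
B6 minus A/J in log2 value (y) at the 5 shared times (x) for each IGF axis gene; points are differences of group means (n = 3 each), bars the 95% interval of limma, and filled points an adjusted p under 0.05. Filled points gather at PN0, where Igf1, Igfbp3 and Igfbp6 lie above 0 and Igfbp2 and Igfbp5 below it.

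The strain difference changed with time for 3 of 8 members in limma's F test over the 5 shared times, Igf1, Igfbp2 and Igfbp3 (adjusted p = 0.00029, 0.0024 and 0.00084), where 16.2% of all probe sets passed. At PN0 it differed from that at E15.5 by 0.49 for Igf1, 1.28 for Igfbp3 and -0.49 for Igfbp5 (limma adjusted p = 0.016, 0.0013 and 0.030, and 5.94% of probe sets). The value of Igf1 was 0.42 without A/J PN0 replicate 1 and 0.47 without B6 PN0 replicate 2 (adjusted p = 0.055 and 0.051). Igf1r was at 0.38 (adjusted p = 0.14), and at 0.49 without A/J PN0 replicate 1 (adjusted p = 0.043). The value of Igfbp5 was -0.36 without A/J PN0 replicate 1 (adjusted p = 0.11) and lost the call without any of 5 other replicates, at -0.49 to -0.41: A/J E15.5 replicates 2 and 3, B6 E15.5 replicates 1 and 3, and B6 PN0 replicate 2. Igfbp5 passed the F test without A/J E15.5 replicate 1, A/J E18.5 replicate 3 or A/J PN0 replicate 2 (adjusted p = 0.036, 0.046 and 0.035, against 0.089 with them). At PN0, 6.71% of all probe sets were higher in B6 and 13.2% lower. Cell cycle markers were then at 7.48 to 7.58 in B6 and at 6.74 to 7.01 in A/J, with 6 of 7 higher in B6. Lung mesenchyme markers were at 9.90 to 10.02 and at 10.17 to 10.25, with 3 of 8 lower, and mesothelial markers at 8.69 to 8.82 and at 9.07 to 9.19, with 2 of 5 lower. Liver markers were at 5.99 to 6.34 in B6 and at 5.43 to 5.52 in A/J, with 0 of 7 called in limma's test. Their part in the differences of the members was not tested. In bulk RNA, fewer cells of a type and less RNA per cell cannot be told apart.

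Averaged over the 4 shared fetal times, 5 of 8 members differed between the strains, where 38.6% of all probe sets did. Igfbp6 was higher in B6 by 0.43 (SE 0.08, limma adjusted p = 0.00011), and Igfbp3, Igfbp5, Igfbp2 and Igfbp4 were lower (-0.30, -0.21, -0.17 and -0.13, with limma adjusted p of 0.0078, 0.0011, 0.021 and 0.015). None of these averages reached 1.5-fold. With quantile normalization those of Igfbp2 and Igfbp4 were -0.10 and -0.06 and did not pass (adjusted p = 0.25 and 0.28). Igf1 differed by 0.09 and Igf1r by -0.12 on average (adjusted p = 0.11 and 0.073). The average passed for Igf1 without A/J E18.5 replicate 2 (0.12, adjusted p = 0.034) and for Igf1r without B6 E17.5 replicate 1 or B6 E18.5 replicate 2 (-0.14 each, adjusted p = 0.047 and 0.033). The averages join unlike times. Igfbp2 differed by 0.16, -0.12, 0.02 and -0.75 from E15.5 to E18.5, and E18.5 alone was called. Igfbp3 differed by -0.48, -0.49 and -0.41 at the first 3 times and by 0.20 at E18.5, none of them called, before the 0.80 of PN0.

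B6 lungs of E18.5 and A/J lungs of E19.5, both 1 day before birth, were compared as groups of like stage. Here 4 of 8 members differed, where 9.94% of all probe sets did. Igf1 was higher in B6 by 0.74 (limma adjusted p = 1.0e-06), with B6 at 8.41, 8.56 and 8.37 and A/J at 7.65, 7.68 and 7.78. Igfbp3 was lower in B6 by 0.93 (log2 difference -0.93, adjusted p = 0.00045) and Igfbp7 by 0.56 (log2 difference -0.56, adjusted p = 0.0020), both without overlap of replicates. Igfbp2 differed by 0.40 (limma adjusted p = 0.029), and by 0.33 without A/J E19.5 replicate 1, 0.32 without B6 E18.5 replicate 1 and 0.29 without array 2b (adjusted p = 0.144, 0.145 and 0.16). The 95% intervals were -0.15 to 0.25 for Igfbp5, -0.25 to 0.08 for Igfbp4 and -0.43 to 0.22 for Igfbp6. Differences within these intervals were not excluded. Igf1r differed by -0.23 (adjusted p = 0.19).

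Around birth, 3 of 8 members passed the test in A/J and 3 of 8 in B6. The A/J step ran from E20.5 to PN0, an interval of hours, and the B6 step from E18.5 to PN0, so that the steps differ in length. In A/J, Igfbp2 rose by 0.91 (fold 1.87, limma adjusted p = 1.4e-06), Igfbp5 rose by 0.38 (adjusted p = 0.0049) and Igfbp6 fell by 0.46 (log2 difference -0.46, adjusted p = 0.036), 3 of 8 members where 20.1% of all probe sets were called. The Igfbp5 step was 0.25 without A/J PN0 replicate 1 (adjusted p = 0.073). The Igfbp6 step was -0.48 to -0.39 and missed the threshold (adjusted p of 0.063 to 0.145) without E20.5 replicate 1, E20.5 replicate 3 or any 1 of the PN0 replicates. In B6, Igfbp3 and Igf1r rose by 1.91 and 0.41 and Igf1 fell by 0.36 (log2 difference -0.36), with limma adjusted p of 1.3e-09, 0.0032 and 0.0025, again 3 of 8, where 26.9% of probe sets were called. Igf1r in A/J was -0.25 (adjusted p = 0.093), and -0.34 and -0.37 (adjusted p = 0.039 and 0.017) without E20.5 replicate 1 or PN0 replicate 1.

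The difference between these steps, B6 minus A/J, was tested after the values had been seen. It passed for 4 of 8 members, where 11.2% of all probe sets did: Igfbp3 (1.85, SE 0.24, limma adjusted p = 9.7e-06), Igfbp2 (-0.96, SE 0.17, adjusted p = 0.00032), Igf1r (0.67, SE 0.15, adjusted p = 0.0035) and Igfbp5 (-0.56, SE 0.14, adjusted p = 0.0074). Without the replicates high in upper airway markers it was 1.95, -0.77, 0.47 and -0.74. This left replicate 1 alone of A/J at E20.5, and replicates 1 and 3 of A/J at PN0. Igfbp6 was at 0.62 (adjusted p = 0.072), and at 0.74 (adjusted p = 0.041) without A/J E20.5 replicate 2. For Igf1 the difference was -0.20 with a 95% interval of -0.46 to 0.06.

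**Figure D4:**
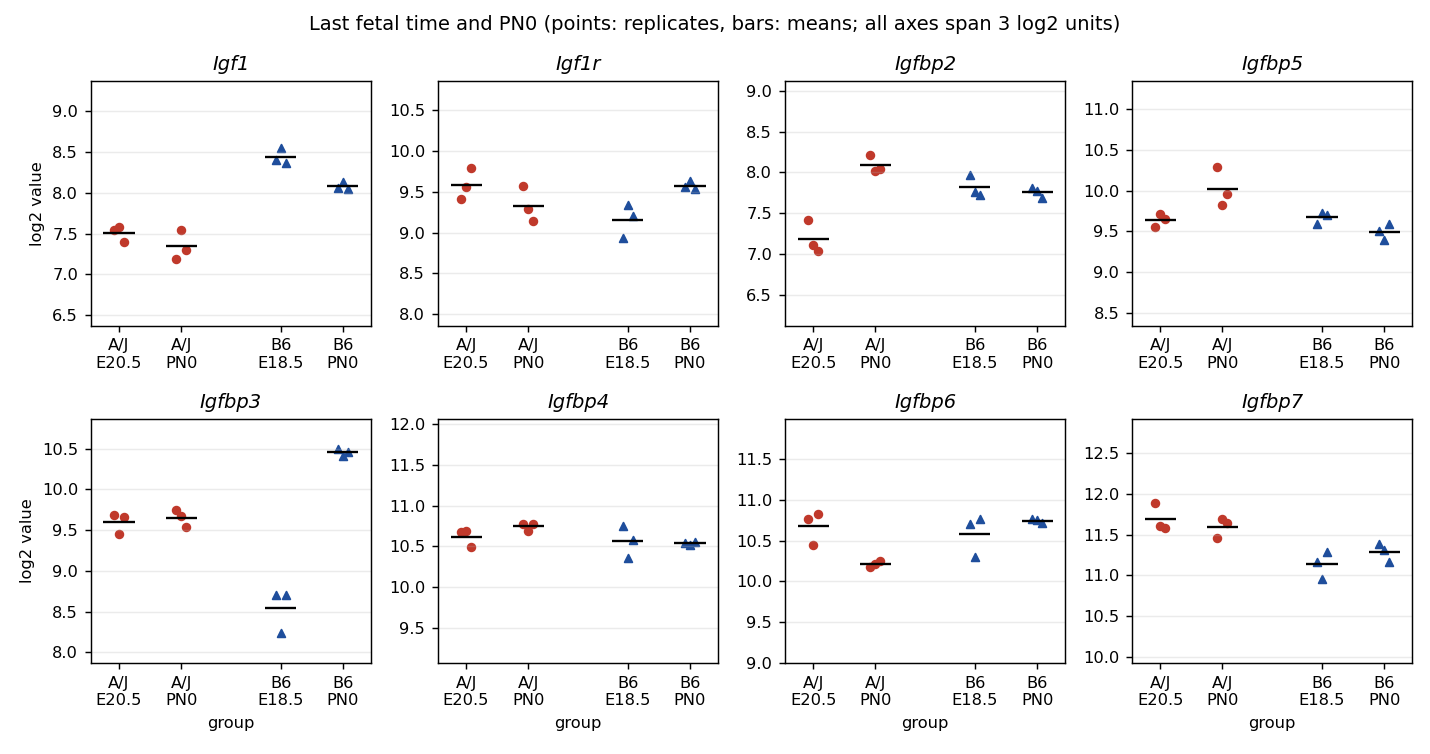
Log2 value (y) of each IGF axis gene in the last fetal group and at PN0 of each strain (x); points are replicates, horizontal bars means (n = 3). Igfbp2 is higher at PN0 than at E20.5 in A/J, and Igfbp3 is higher at PN0 than at E18.5 in B6, each without overlap.

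The other genes of the pathway were counted from lists written from textbook knowledge, with earlier results of these data known. Between E15.5 and PN0, 23 of 70 measured genes rose in the 2 strains alike and 16 fell, 1 moved in opposite directions, 13 passed in 1 strain only and 17 in neither. These are 32.9%, 22.9%, 1.43%, 18.6% and 24.3% of the genes, where 20%, 21.3%, 0.28%, 18.8% and 39.6% of all 21789 probe sets fell into the same classes. By list, the share called in either direction was 42.9% to 100% in A/J and the same in B6, where 51% of all probe sets were called. The lists at or below 51% were the IGF family (42.9% in each strain) and, in A/J, the growth hormone axis (50%). In the IGF family outside the members, 1 of 7 rose and 2 fell in both strains, with list medians of -0.13 and -0.05. Igf2, the main fetal IGF, changed by -0.84 in A/J lungs and by -0.75 in those of B6 (limma adjusted p = 6.3e-12 and 8.0e-11). Igf2r, the receptor that clears IGF2, changed by -0.85 and -0.82 (adjusted p = 8.4e-11 and 1.6e-10). Insr, the insulin receptor, rose by 0.75 and 0.89 (adjusted p = 4.7e-08 and 1.4e-09). Igfbp1, a liver binding protein, was at group means of 5.38 to 5.85 and did not pass. Igfbpl1 did not pass either (-0.21 and -0.05).

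Among 9 proteases that cut IGFBPs and inhibitors of these, A/J had 2 higher and 4 lower at PN0, and B6 4 higher and 3 lower. Of all probe sets, 25.2% were higher and 25.8% lower in A/J, and 24.4% and 26.6% in B6. Adam12, which cuts IGFBP3 and IGFBP5, fell most (-2.12 in A/J and -2.27 in B6, limma adjusted p = 3.4e-14 and 7.7e-15). Stc1, one of the stanniocalcins, which inhibit pappalysins, rose by 1.29 and 0.68, the lysosomal protease Ctsd rose by 0.85 and 0.96, and the gelatinase Mmp2 changed by -0.36 and -0.95, all called. Pappa, the pappalysin that cuts IGFBP4, fell in A/J (-0.76, adjusted p = 2.5e-05) and rose in B6 (0.47, adjusted p = 0.0051), and the difference between the strains in this change was 1.24 (limma adjusted p = 0.00020). Pappa was named after its values were seen, as the 1 gene that moved in opposite directions.

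Of 13 adaptors and substrates of the receptors, 5 rose and 3 fell in both strains, where 20% and 21.3% of all probe sets did. Grb10, an imprinted adaptor that dampens the receptor, had log2 differences of -2.003 (A/J) and -2.12 (B6), both called. Irs2 rose by 0.66 and 1.18 and Sos2 by 0.86 and 0.92, whereas Irs1 changed by -0.70 and -0.94, all with limma adjusted p of 4.6e-06 or less. At E18.5, where Igfbp2 was lower in B6, Igf2 and Grb10 were lower too (-0.64 and -0.31, limma adjusted p = 1.2e-07 and 0.0099). Igf2r was not called (-0.07). At that time 27.7% of all 21789 probe sets were lower in B6, and the median difference over all of them was -0.13. Among 16 PI3K, Akt and Foxo genes, A/J had 8 higher and 3 lower at PN0 than at E15.5, and B6 8 higher and 4 lower. The share called was 68.8% in A/J and 75% in B6, against 51% of all probe sets in each. By direction, 25.2% of all probe sets were higher and 25.8% lower in A/J, and 24.4% and 26.6% in B6. The kinase subunits Pik3cb and Pik3r1 rose by 1.44 and 0.87 in A/J and by 1.28 and 1.14 in B6. The transcription factors Foxo3 and Foxo1 rose by 0.69 and 0.64 in A/J and by 1.23 and 0.95 in B6.

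Among 15 genes of the mTOR complexes and their targets, A/J had 6 higher and 3 lower at PN0, and B6 8 higher and 4 lower. For this list and those below, the shares of all probe sets were 25.2% higher and 25.8% lower in A/J. In B6 they were 24.4% and 26.6%. Deptor, an mTOR inhibitor, rose by 1.18 and 1.21, and Mlst8, a shared subunit, changed by -1.01 and -1.497. Eif4ebp1, a repressor of translation, rose by 0.69 and 0.83, and Ddit4, another inhibitor, by 1.04 in B6 (0.30 in A/J, adjusted p = 0.084). The growth hormone axis acts upstream of Igf1 in the liver after birth, and of its 8 genes A/J had 4 higher and 0 lower, B6 4 higher and 2 lower. The 4 that rose, in both strains, were Cish, Socs2, Socs3 and Jak2, at 1.82, 1.53, 1.38 and 0.98 in A/J and 1.88, 1.44, 1.05 and 0.72 in B6. The 2 that fell in B6 were Ghr and Stat5b (-0.29 and -0.30, limma adjusted p = 0.0013 and 0.0087). Neither passed in A/J (-0.08 and 0.07, limma adjusted p = 0.42 and 0.58). The list medians were 0.54 and 0.42. Both measured Igf2 mRNA binding proteins fell, Igf2bp1 (-1.66 and -1.31) and Igf2bp3 (-1.35 and -1.34).

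**Figure D5:**
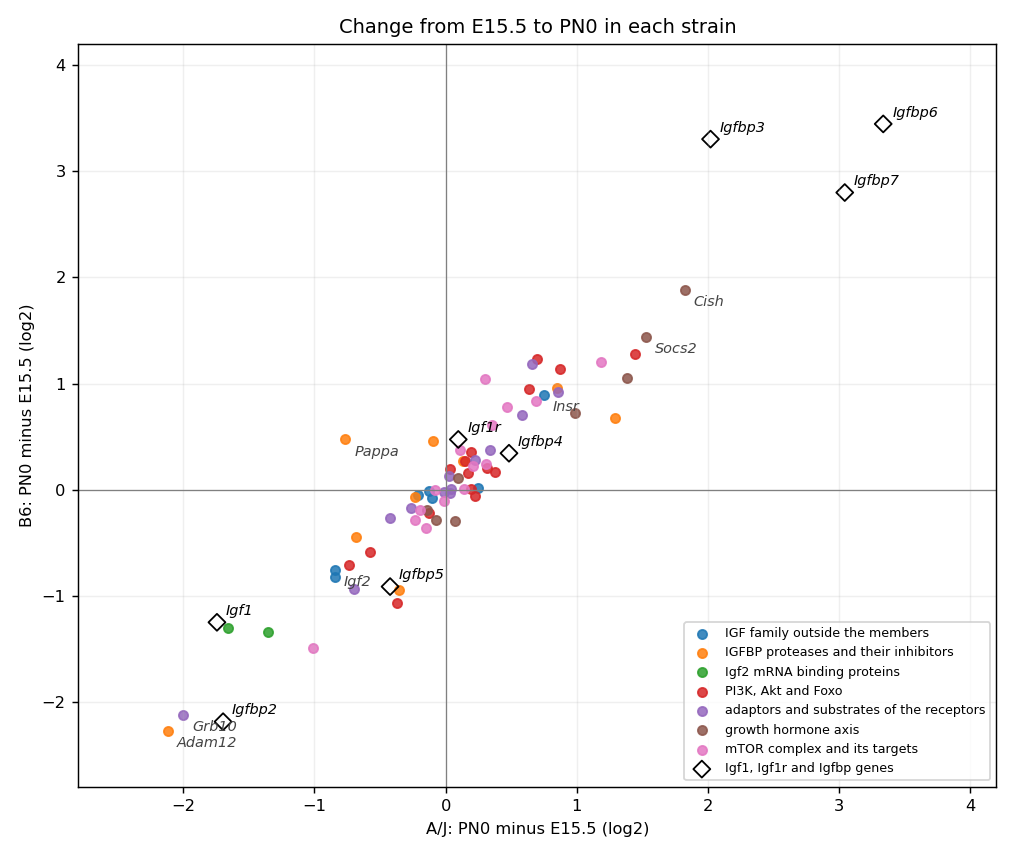
Change in log2 value from E15.5 to PN0 in A/J (x) and in B6 (y) for the IGF axis genes (open diamonds) and 70 other pathway genes (dots coloured by list). Pappa stands apart, below 0 in A/J and above 0 in B6, and Igfbp3 lies further from 0 in B6 than in A/J.

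Cell type markers changed over the same times. Between E15.5 and PN0, 25.2% of all probe sets rose and 25.8% fell in A/J. In B6 24.4% rose and 26.6% fell, and in both strains 20% rose and 21.3% fell. At PN0 all 7 measured cell cycle markers were below their E15.5 level, with medians of -3.21 for A/J and -2.53 for B6. Lung epithelial markers rose in 7 of 8 cases and 1 fell, in each strain (medians of 1.75 and 1.57). Of 8 endothelial markers, 8 rose in A/J and 7 in B6 (medians of 1.04 and 0.87), and 5 of 8 lung mesenchyme markers fell in both strains (medians of the list -0.36 and -0.79). Of 7 heart muscle markers 6 rose in each strain (medians of 1.07 and 1.19) and of 5 mesothelial markers 3 (0.28 and 0.34), while of 5 macrophage markers 5 rose in A/J and 3 in B6 (0.75 and 0.29). Their part in the changes of the members was not tested. Without the 4 replicates high in liver markers, to which those E15.5 replicates high in heart markers belong, the changes from E15.5 to PN0 in A/J were -1.74 for Igf1, -1.69 for Igfbp2, 2.10 for Igfbp3, 3.28 for Igfbp6 and -0.32 for Igfbp5, all called.

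For each member, the genes whose 12 group means ran most alike were ranked by Pearson r over 19937 other genes, as a description. Igf1 ran closest to Bub1b (r = 0.986), a kinase of the spindle checkpoint, Hmgn2 (0.984), a nucleosome binding protein, and Cdca3 (0.982), a cell division protein. Igfbp2 ran closest to Dchs1 (0.993), a protocadherin, Mrps5 (0.992) and Nde1 (0.990), and Igfbp5 to Ddx56 (0.986), Thoc5 (0.984) and Farsa (0.981). Igfbp3 ran closest to Pde4d (0.983), a cAMP phosphodiesterase, Prkce (0.979), a protein kinase C, and Nfkbib (0.979), an inhibitor of NF-kappaB. Igfbp6 ran closest to Kcnj15 (0.995), Sult1a1 (0.993) and Dst (0.993), Igfbp7 to Septin4 (0.995), S100a1 (0.995) and Kank3 (0.994), and Igfbp4 to Ndufs7 (0.995), Plbd2 (0.984) and Agpat1 (0.981). For Igf1r the nearest genes were less close, Ffar4 (0.919), Pnpla7 (0.919) and Rab20 (0.914). All points share age, so that any gene with a like course over time scores high.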

How the data were processed

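RNA of whole right lungs from 12 strain and time groups (3 litters each, 3 males pooled per litter) was hybridized to Affymetrix Mouse Gene 1.0 ST arrays. The deposited log2 values had been made by the authors with the RMA option of Affymetrix Expression Console 1.1, and were used without further scaling. RMA equalizes array distributions, which lessens shifts shared by most genes. Some shifts remained, such as the median of -0.13 over all probe sets between B6 and A/J at E18.5. The genome build of the authors' annotation is not given in the sources used here. Arrays were assigned by their titles, and array 2b (B6, E18.5) was averaged with array 2, leaving 36 replicates.

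Probe sets were named through a reference table of the platform; of 35556, 21789 had 1 symbol, 1621 several and 12146 none, and those with 1 symbol were tested. For a gene with several, the highest mean was used. A mean per group was fitted with limma 3.58.1 (R 4.3.3; 24 residual degrees of freedom, prior 6.13). SE is limma's moderated standard error, and p values of each comparison were adjusted over the tested probe sets (Benjamini-Hochberg); a p beside a difference in the text is this adjusted p. Pairwise differences were called at an adjusted p under 0.05, and changes over time at 0.01 and a fold of 2. The method was tested on simulated data. Replicate numbers were checked for pairing and no pairing was modelled.

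The members and gene lists were chosen with earlier results of these data known. All members were named throughout, with the 3 genes of highest r to each and up to 4 genes of each pathway list with the largest change from E15.5 to PN0 averaged over strains, and Igf2, Igf2r and Igfbp1 always. Pappa, Ghr and Stat5b were named in addition. Alternatives covered normalization, probe sets tested, dim probe sets, empirical Bayes settings, groups in the fit, the threshold, array 2b, a replicate block and leaving out replicates. Promoter sequences and gene positions are those of RefSeq on GRCm38.p6, and all 8 members matched by symbol; protein sequences were not used here. Plots were made in Python 3.11.15 with matplotlib 3.10.9.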

Additional observations from a re-analysis of the deposited data

Results flagged for a closer look

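For several members the effect of time differed between the strains in a test of the difference itself. Over the 5 shared times, the strain difference changed for Igf1, Igfbp2 and Igfbp3 in limma's F test (adjusted p = 0.00029, 0.0024 and 0.00084), and the contrast with E15.5 that was largest in size was 0.49, -0.91 and 1.28 on the log2 scale (B6 minus A/J). By single contrasts with E15.5, Igfbp2 differed at E18.5 (-0.91, limma adjusted p = 0.0016), and at PN0 Igf1 (0.49, adjusted p = 0.016), Igfbp3 (1.28, adjusted p = 0.0013) and Igfbp5 (-0.49, adjusted p = 0.030) did. At PN0 the B6 lungs were a day younger after conception. Strain and age thus cannot be told apart in the PN0 contrasts, nor in the F test, which includes them. The step from the last fetal time to PN0 also differed between the strains, a comparison chosen after seeing the data and over intervals of different length. B6 minus A/J was 0.67 for Igf1r, -0.965 for Igfbp2, 1.85 for Igfbp3 and -0.56 for Igfbp5 (limma adjusted p = 0.0035, 0.00032, 9.7e-06 and 0.0074). Groups held 3 replicates, so that no test for single outlying replicates was run.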

How the results depend on the processing

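With 3 litters per group, small differences can pass or miss the threshold with 1 replicate, and array values give no depth. Counts of called members moved by over 1.5 times as follows, and the cause was not tested unless the setting itself requires it. Adding a fold of 1.5 to the threshold lowered them by construction: in A/J from 2 to 1 (E16.5 minus E15.5), 5 to 3 (E17.5 minus E15.5), 5 to 3 (E17.5 minus E16.5), 7 to 4 (E18.5 minus E15.5), 5 to 3 (E19.5 minus E18.5) and 3 to 1 (PN0 minus E20.5). In B6 it lowered them from 4 to 2 (E16.5 minus E15.5) and 3 to 1 (PN0 minus E18.5), and between the strains from 2 to 1 at E16.5, 2 to 1 at E18.5, 5 to 2 at PN0, 5 to 0 before birth and 4 to 2 for B6 of E18.5 against A/J of E19.5. With the adjusted p alone, 8 members in place of 5 changed over time in B6. A/J E16.5 minus E15.5 and the strain difference at E16.5 fell to 1 with all probe sets tested, with quantile normalization and without the replicates high in liver markers. A/J E16.5 minus E15.5 also fell to 1 with only the groups compared in the fit, where the strain difference at E17.5 rose to 1. The strain difference at E18.5 fell to 1 with quantile normalization, with array median centring and with only the groups compared. Without the liver marker replicates 3 members differed before birth. Without the upper airway marker replicates, replicate 2 alone was left of A/J at E17.5, so that no count is given there. Comparisons with A/J at E18.5 could not be run without them. Of the strain differences against that at E15.5, the count at E18.5 (1) rose to 2 with the dim filter and with array 2b in place of array 2, and that at PN0 (3) fell to 1 with the fold of 1.5.

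Leaving out each replicate in turn gave 1 to 2 members for A/J E16.5 minus E15.5, 1 to 2 for the strain difference at E16.5 and 1 to 4 at E18.5. It gave 4 to 5 for A/J E17.5 minus E16.5, 4 to 5 for A/J E18.5 minus E17.5, 4 to 6 for A/J E19.5 minus E18.5, 7 to 8 for A/J E20.5 minus E15.5, 2 to 3 for A/J PN0 minus E20.5, 3 to 4 for B6 of E18.5 against A/J of E19.5, 4 to 6 for the strains at PN0, 5 to 6 before birth, 4 to 5 for the birth step and 3 to 4 for strain by time, 1 to 3 for strain by time at E18.5 and 1 to 3 for it at PN0. Of the 154 member results called in some setting 1 changed sign: Igf1 in B6 minus A/J at E18.5 was -0.13 and 0.0194 with quantile normalization. Of 94 results called in no setting, 44 changed sign in some setting. Of single member values called in some setting, 1924 comparisons with an alternative kept direction and call, 83 lost and 36 gained a call, and leaving out 1 replicate kept 1339, lost 41 and gained 21.

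At the median, replicates with the same number did not deviate together across groups (r of -0.41 to 0.39, median -0.02 over 198 pairs, against 0.00 over 396 pairs of different numbers). A median over all pairs cannot show whether some groups share a batch by number, and the labels do not say. With the replicate number as a block no count moved by over 1.5 times, and 4 members in place of 5 differed between the strains at PN0, without Igfbp2 (adjusted p = 0.055).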
